A study of Mus musculus with 18 samples.

Results

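Setd2 mRNA was depleted in C2C12 myoblasts, a dividing mouse skeletal muscle cell line, with 1 of 2 siRNAs, and the libraries of siRNA 2 were compared here with those of siRNA 1. The members are the 6 of 18 libraries that the labels assign to the Setd2 siRNAs in undifferentiated cells, 3 for siRNA 2 (si-Setd2#2) and 3 for siRNA 1 (si-Setd2#1). Another 3 myoblast libraries, from cells given a control siRNA (si-Ctrl), served as the common baseline, and the 9 libraries of differentiated C2C12 myotubes, with the same 3 treatments, gave a second set. All cells of every group had been stretched before polyA RNA was taken, per the labels' protocols, and the cells are 1 line, so nothing here shows unstretched or primary muscle cells. The question was which groups of genes separate cells with overlapping levels of Setd2 mRNA according to the siRNA they received.

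An siRNA is a short RNA duplex whose guide strand is loaded into an Argonaute protein and directs the slicing of a matching mRNA. A guide can also lower mRNAs that pair only with its seed, as a microRNA does, and 2 siRNAs against a single gene share the intended target but not these partial matches. SETD2 is the main enzyme that places trimethylation on lysine 36 of histone H3 along transcribed genes, and it has also been shown to methylate tubulin. Neither siRNA sequence is stated in the labels or files, so no match between either guide and any transcript was examined.

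Library names carry a prefix, C14 or D2, whose meaning is not given in the labels. Replicate 1 of siRNA 2, replicates 1 and 2 of siRNA 1 and replicate 1 of the controls are C14, and the other 5 myoblast libraries are D2. Libraries of 1 group and 1 prefix lay closer to each other than libraries of different prefix in siRNA 1 and in controls (mean chi-square per gene 2.6 and 2.69 within a prefix, against 10.4 to 12.3 across prefixes). In siRNA 2 the values were 29.1 for the D2 pair and 15.2 and 61.4 for the pairs across prefixes, with replicate 3 the furthest from the others. Total estimated counts were 45.2 to 55.6 megareads with siRNA 2, 53.2 to 63.0 megareads with siRNA 1 and 52.3 to 57.2 megareads in controls. Genes made of ribosomal RNA sequence took 1.45%, 1.90% and 4.09% of the counts with siRNA 2, 3.56% to 3.90% with siRNA 1 and 1.2% to 1.36% in controls. The column of siRNA 2 replicate 3 is named SETD3 where the sample's label has SETD2. Over the 299 genes that separated siRNA 1 from siRNA 2 replicates 1 and 2 at an adjusted p under 0.0001 in a fit without that library, it lay at a median position of 1.02 (quartiles 0.951 and 1.08) on a scale from 0 for siRNA 1 to 1 for the other siRNA 2 libraries. The count of genes called is given with and without it, and a gene or list is named beside its result where leaving out this or another library ended a call or moved a count of at least 3 by over 1.5 times.

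Setd2 (chromosome 9, positions 110532597 to 110618633 of mm10) stood at 46.1, 45.1 and 40.3 CPM with siRNA 2, 42.6, 42.8 and 35.1 CPM with siRNA 1 and 99.9, 111 and 121 CPM in controls (CPM, counts scaled to library size). Both siRNA groups overlapped and lay below every control. The siRNAs differed by 0.13 on the log2 scale (SE 0.10, adjusted p = 0.406 with edgeR's quasi-likelihood test), which was not called at the threshold of 0.05 used throughout, and by 0.11 within C14 and 0.28 within D2. Of the Setd2 transcripts in the tables, the main coding one (ENSMUST00000153838, 8350 bases) was at 8.68, 8.61 and 7.55 TPM, a length-adjusted abundance, with siRNA 2, 7.95, 7.76 and 6.62 TPM with siRNA 1 and 20, 21.9 and 24.3 TPM in controls. A transcript of 1007 bases, annotated as a retained intron (ENSMUST00000197260), was at 2.28, 1.93 and 2.17 TPM with siRNA 2, 0.746, 0.702 and 0.79 TPM with siRNA 1 and 1.7, 1.4 and 1.07 TPM in controls. That transcript was picked after its values were seen and was not tested; its siRNA 2 values were the highest and did not overlap those of either other group.

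Of 9 tested enzymes on a list of Setd2 and related SET-domain enzymes, 1 was called higher and 3 lower, by small amounts. That is 44.4% called, against 26.3% of all genes tested. Ash1l was lower with siRNA 2 (log2 difference -0.20, adjusted p = 0.00376), as were the dimethyltransferase Nsd2 (-0.14, adjusted p = 0.00302) and Smyd2 (-0.15, adjusted p = 0.033). Nsd1 was higher (0.16, adjusted p = 0.00599). Nsd3, Prdm9 and Setmar were not called (log2 differences 0.00, -0.06 and 0.08). Setd3, the actin histidine methyltransferase whose name appears in the library column, was at 74.7, 72.5 and 72.4 CPM with siRNA 2 and 79, 81.1 and 74.1 CPM with siRNA 1 and was not called (-0.09, adjusted p = 0.0813). It was called lower with the prefix in the model (adjusted p = 0.0416) and without siRNA 1 replicate 3 (adjusted p = 0.0138), but not with same-prefix libraries summed (adjusted p = 0.158). With 1 library left out, the call was lost for Smyd2 without siRNA 2 replicate 1 or 3 or siRNA 1 replicate 3 (adjusted p up to 0.112). With limma on TPM it was lost for Smyd2 (adjusted p = 0.145).

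With Setd2 levels that overlapped, many genes separated the siRNAs, most of them by little. Of 15586 genes tested, 4103 (26.3%) were called at an adjusted p under 0.05 with edgeR's quasi-likelihood test, 1880 (12.1%) higher and 2223 (14.3%) lower with siRNA 2 than with siRNA 1. The median size of a called log2 difference was 0.24, and 93 called genes differed by at least 2-fold, 59 higher and 34 lower. Without siRNA 2 replicate 3 the count was 3092, 1379 higher and 1713 lower. Of all genes tested, 11835 (75.9%) had the same sign within C14 and within D2 libraries. With the prefix in the model 6263 genes (40.2%) were called, 4095 of them in common with the first set and of the same sign. Over all genes tested the median log2 difference was 0.00. The libraries of the siRNAs did not overlap for 40.4% of the genes tested.

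**Figure D1:**
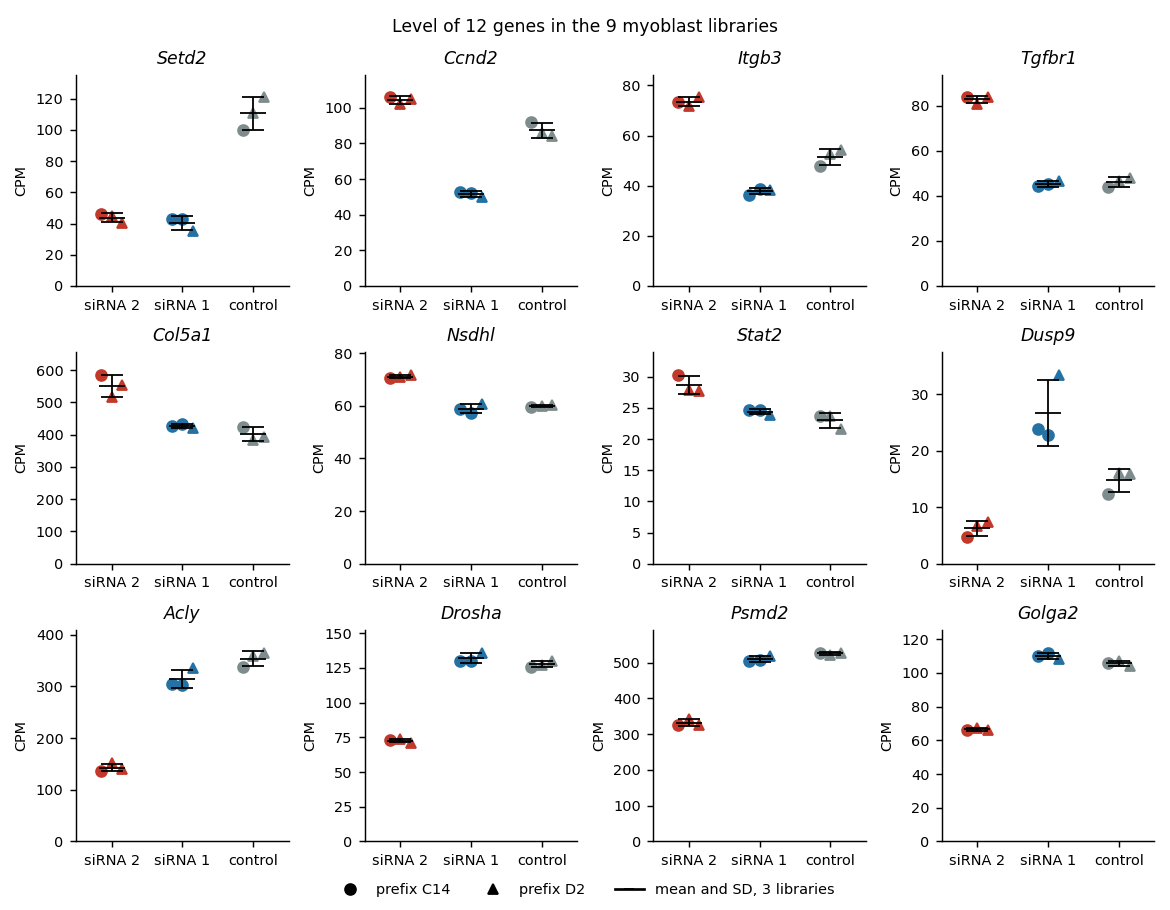
CPM (y axis, from 0) of 12 genes in the 9 myoblast libraries, with siRNA 2 on the left, siRNA 1 in the middle and control on the right; circles are C14 and triangles D2 libraries, and bars give the mean and SD of 3 libraries. The Setd2 values of the siRNAs overlap, while the siRNA 2 and siRNA 1 libraries of the other 11 genes do not.

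The genes furthest apart between the siRNAs are given for protein-coding genes with a mean of at least 5 CPM in either siRNA group and no overlap between their libraries, the 12 furthest in each direction. The furthest on the lower side was Dusp9, a phosphatase that inactivates MAP kinases. Dusp9 (chromosome X, positions 73639419 to 73643514 of mm10) had 4.71, 6.66 and 7.34 CPM with siRNA 2, 23.8, 22.8 and 33.4 CPM with siRNA 1 and 12.4, 16.1 and 15.8 CPM in controls. Its siRNA 2 libraries lay below every control and its siRNA 1 libraries above every control (log2 difference -2.10, SE 0.22, adjusted p = 0.000358). Npr3, the clearance receptor of natriuretic peptides (chromosome 15, positions 11839896 to 11907287 of mm10), was at 6.17, 10.3 and 9.55 CPM with siRNA 2, 25.7, 27.5 and 31.6 CPM with siRNA 1 and 13.9, 16.7 and 16.6 CPM in controls, in the same order (log2 difference -1.71, SE 0.18, adjusted p = 0.000267). Nkain1, which interacts with the sodium pump, also lay on both sides of the controls, at -1.39 between the siRNAs, as did Ankrd13a, a ubiquitin-binding ankyrin repeat protein, at -1.31.

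A further 7 of these 12 genes on the lower side were genes lower with siRNA 2 than in controls and not called with siRNA 1 against controls. Zdhhc4, a palmitoyltransferase (chromosome 5, positions 143316489 to 143329256 of mm10), had 8.04, 6.81 and 7.34 CPM with siRNA 2, 19.4, 19.3 and 20.1 CPM with siRNA 1 and 21, 22 and 21.4 CPM in controls (log2 difference -1.40, SE 0.06, adjusted p = 2.56e-08). All 3 of its siRNA 2 libraries were far below the other 6. The others were Cpt2, the inner carnitine palmitoyltransferase of mitochondria (log2 difference between the siRNAs -1.31), the Rab GTPase-activating protein Tbc1d10b (-1.28), the Ste20-type kinase Mink1 (-1.28), the proteasome assembly chaperone Psmg3 (-1.26), the spindle checkpoint protein Mad1l1 (-1.25) and Fam76a (-1.12). Against control these 7 stood at log2 differences of -1.53 to -1.12 with siRNA 2 and of -0.13 to 0.10 with siRNA 1. Against control, 5222 of all genes (33.5%) were called with siRNA 2 and 3122 (20%) with siRNA 1. By direction these were 2658 higher and 2564 lower with siRNA 2, and 1807 higher and 1315 lower with siRNA 1. The counts of list members against control given below stand beside this larger number of siRNA 2 calls. Both comparisons use the same control libraries, so they are set side by side only. Acly, given with the lipid genes, completes the 12.

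On the higher side the largest difference under the same limits was that of Ccnd2, cyclin D2, while some genes at lower levels, such as Sp7, Xaf1 and Nfatc2, differed by more. Ccnd2 (chromosome 6, positions 127125162 to 127152193 of mm10) had 106, 102 and 105 CPM with siRNA 2, 52.8, 52.4 and 49.9 CPM with siRNA 1 and 92, 85.7 and 84.4 CPM in controls (log2 difference 1.01, SE 0.04, adjusted p = 1.29e-08). It was lower with siRNA 1 than in any control, and its siRNA 2 libraries were the highest. Rassf8, a Ras association domain protein, had 27.5, 29.9 and 29.4 CPM with siRNA 2, 15, 15 and 14.2 CPM with siRNA 1 and 31.8, 35.8 and 34.8 CPM in controls (log2 difference 0.97, SE 0.06, adjusted p = 1.75e-07), with both siRNAs below every control and siRNA 1 further so. Vdr, the vitamin D receptor, stood 0.89 apart between the siRNAs, at log2 differences from control of -0.43 with siRNA 2 and -1.32 with siRNA 1. Itgb3, integrin beta 3, had 73.2, 71.9 and 75.3 CPM with siRNA 2, 36.4, 38.8 and 38.2 CPM with siRNA 1 and 47.8, 52.5 and 54.2 CPM in controls (log2 difference 0.96, SE 0.05, adjusted p = 6.98e-08), on both sides of the controls. Also among the 12 were the Z-disc protein Synpo2l (0.96 between the siRNAs), the methyltransferase Smyd1 (0.95) and the myosin light chain kinases Mylk4 (0.95) and Mylk2 (0.94). Synpo2l had 65.2, 60.6 and 67.5 CPM with siRNA 2, 33.7, 36 and 29.6 CPM with siRNA 1 and 21.4, 14.7 and 14.4 CPM in controls, an order of siRNA 2 over siRNA 1 over control in every library. The rest were the adhesion molecule Mcam (0.93), Rassf4 (0.90), 9330159F19Rik (0.94) and the granzyme Gzme (0.95), whose reads can be shared with near-identical granzyme copies. The call ended for Smyd1 without siRNA 2 replicate 1 (adjusted p = 0.0525). Limma on TPM did not call Smyd1 (adjusted p = 0.0648).

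**Figure D2:**
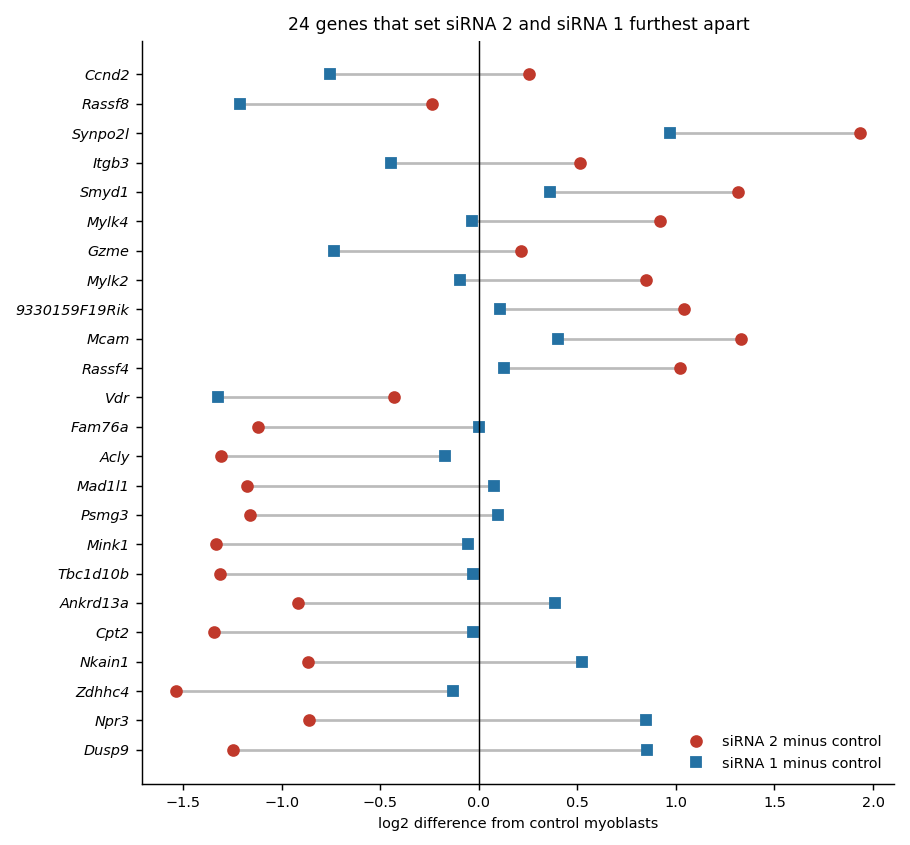
Log2 difference from control myoblasts (x axis) of siRNA 2 (red circles) and siRNA 1 (blue squares) for the 12 genes furthest higher and the 12 furthest lower with siRNA 2 than with siRNA 1, among protein-coding genes with a mean of at least 5 CPM in either group and no overlap of libraries; both differences share the same 3 controls. The lower 12 include 7 genes whose siRNA 1 values sit between -0.13 and 0.10 while siRNA 2 sits between -1.53 and -1.12.

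Members of the RNA interference machinery itself differed. These proteins make microRNAs and carry out silencing by microRNAs and siRNAs. Drosha had 73.2, 73.7 and 71.3 CPM with siRNA 2, 130, 130 and 136 CPM with siRNA 1 and 126, 127 and 130 CPM in controls (log2 difference -0.86, SE 0.03, adjusted p = 1.02e-08), and its siRNA 2 libraries were all well below the other 6, which lay between 126 and 136 CPM. Of 14 genes of the list tested, 6 were called higher and 2 lower with siRNA 2 than with siRNA 1 (57.1% called, against 26.3% of all genes). Over the tested members the median log2 difference was 0.12 (0.13 within C14 and 0.08 within D2). The higher ones were, by log2 difference, 0.42 for Tnrc6a (a GW182 protein that joins Argonaute to the deadenylases), 0.27 for Dgcr8 (the RNA-binding partner of Drosha), 0.22 for Tnrc6c (another GW182 protein) and 0.27 for Ago2 (the Argonaute that slices siRNA targets) (adjusted p between 2.2e-05 and 0.00407) and 2 more, and the other lower one was Dicer1, the RNase that cuts microRNA precursors, at -0.27 (adjusted p = 0.00107). Ago2 was at 523, 559 and 579 CPM with siRNA 2, 441, 442 and 497 CPM with siRNA 1 and 397, 422 and 429 CPM in controls, above every siRNA 1 and control library in all 3 siRNA 2 libraries.

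Interferon-induced genes, which cells switch on through factors such as STAT2 after sensing foreign RNA or interferon, were called higher with siRNA 2 but not lower. Of 48 listed genes 35 were tested, and 14 were called higher and 0 lower with siRNA 2 than with siRNA 1 (40% called). The median of the tested members was a log2 difference of 0.17 (0.22 within C14 and 0.21 within D2). Against control the list had 8 higher and 4 lower with siRNA 2, and 4 higher and 8 lower with siRNA 1. Log2 differences of the leading members were 1.37 for Xaf1 (an interferon-induced partner of the apoptosis inhibitor XIAP), 0.77 for Oasl2 (an oligoadenylate synthetase-like protein), 0.65 for Ifit1 (an interferon-induced RNA-binding protein) and 0.23 for Stat2 (a subunit of the interferon-activated factor ISGF3) (adjusted p between 0.000309 and 0.00468). Stat2 had 30.3, 27.9 and 27.8 CPM with siRNA 2, 24.6, 24.6 and 23.9 CPM with siRNA 1 and 23.7, 23.7 and 21.6 CPM in controls. The siRNA 2 libraries were highest, and siRNA 1 stood just above control. Ifit1 was at 1.98, 2.09 and 2.42 CPM with siRNA 2, 1.25, 1.58 and 1.31 CPM with siRNA 1 and 3.46, 3.07 and 3.12 CPM in controls, in the order control, siRNA 2, siRNA 1 without overlap. Xaf1 had 2.09, 1.91 and 1.89 CPM with siRNA 2, 0.788, 0.97 and 0.512 CPM with siRNA 1 and 1.14, 0.993 and 1.06 CPM in controls, a low level in all libraries. The interferon response list had higher calls numbering 6 without siRNA 1 replicate 2 or 3, 7 without siRNA 2 replicate 2 or 3, 8 without siRNA 2 replicate 1 or siRNA 1 replicate 1 and 6 with limma on TPM. Of all genes, 19.5% to 24.8% were called in either direction in these fits, against 26.3% in the main fit. In some of them, such as that without siRNA 1 replicate 3, the list had no larger share of calls than all genes. With limma on TPM the call was lost for Oasl2 (adjusted p = 0.0934).

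Promoter windows of 2 of these genes are shown as examples of a known element that part of the list holds. The interferon-stimulated response element, searched on both strands as GAAA, any 2 bases and GAAA, lay in 6 of the 13 higher members, out of 14, that have a RefSeq window (GRCm38.p6, the assembly of mm10; 250 bases before to 50 after the start), in 14 of the 27 tested members with one, and in 3.99% of all 27025 genes with a window. The windows of Ifit1 and Stat2 read 5′ to 3′ along the gene, with matches in capitals.
Ifit1 (chr19:34640639-34640938, plus strand): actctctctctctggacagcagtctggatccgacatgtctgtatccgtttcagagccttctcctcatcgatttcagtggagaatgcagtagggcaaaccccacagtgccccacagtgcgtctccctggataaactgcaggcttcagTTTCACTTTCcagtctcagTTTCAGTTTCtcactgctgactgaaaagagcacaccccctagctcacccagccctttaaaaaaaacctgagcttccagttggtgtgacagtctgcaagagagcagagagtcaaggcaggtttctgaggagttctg
Stat2 (chr10:128270248-128270547, plus strand): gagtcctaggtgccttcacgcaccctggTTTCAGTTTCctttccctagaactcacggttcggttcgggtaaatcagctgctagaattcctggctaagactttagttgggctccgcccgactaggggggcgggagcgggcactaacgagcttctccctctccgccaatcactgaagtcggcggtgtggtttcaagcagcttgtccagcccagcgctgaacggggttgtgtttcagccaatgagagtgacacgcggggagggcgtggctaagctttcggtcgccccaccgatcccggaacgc
Each match reads TTTC, any 2 bases and TTTC, the reverse complement of the element, so it lies on the strand opposite to the gene. Higher members held the element no more often than the tested members as a whole. A match is a description of the letters and shows no binding.

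Genes of NF-kB signalling and its cytokine targets were more often called higher than lower: of 32 tested, 10 were called higher and 1 lower with siRNA 2 than with siRNA 1 (34.4% called). As a median, the tested members stood at a log2 difference of 0.16 (0.10 within C14 and 0.18 within D2). Set against control, the counts were 12 higher and 1 lower with siRNA 2, and 2 higher and 2 lower with siRNA 1. All genes stood at 33.5% and 20% called in these 2 comparisons. The chemokine Ccl2 had 9.41, 10.2 and 11.2 CPM with siRNA 2, 7.34, 7.11 and 7.06 CPM with siRNA 1 and 7.31, 7.83 and 7.29 CPM in controls, highest in all 3 siRNA 2 libraries. Leading log2 differences were 0.52 for Ccl2 (a monocyte chemokine), 0.32 for Tnfaip2 (a gene induced by tumour necrosis factor), 0.20 for Nfkb2 (the p100 subunit of NF-kB) and 0.61 for Cxcl1 (a neutrophil chemokine) (adjusted p between 0.000327 and 0.00585), and the lower gene was Nfkbib, the NF-kB inhibitor IkB beta, at -0.24 (adjusted p = 0.0248). Interleukin receptors, ligands and their kinases went both ways: of 27 tested, 5 were called higher and 4 lower with siRNA 2 than with siRNA 1 (33.3% called). Their median log2 difference was 0.02 (0.04 within C14 and 0.03 within D2). Its sign changed under 1 of 15 alternatives. Log2 differences of those higher were 0.50 for Lifr (the receptor of leukaemia inhibitory factor), 0.32 for Socs3 (a feedback inhibitor of cytokine receptors), 0.15 for Il1r1 (the interleukin 1 receptor) and 0.31 for Jak2 (a receptor-associated tyrosine kinase) (adjusted p between 1.03e-05 and 0.0109). On the lower side were -0.27 for Il1rap (the shared accessory chain of interleukin 1 family receptors), -0.44 for Il6ra (the interleukin 6 receptor alpha chain), -0.64 for Il11ra1 (the interleukin 11 receptor alpha chain) and -0.24 for Il17ra (an interleukin 17 receptor chain) (adjusted p between 0.00014 and 0.0255). Lifr had 69.7, 71.3 and 70.3 CPM with siRNA 2, 50.3, 53.1 and 46.4 CPM with siRNA 1 and 77, 72.6 and 71.5 CPM in controls; its siRNA 1 libraries were lowest, and siRNA 2 lay just under the controls. The interleukin receptors and ligands list had lower calls numbering 2 with limma on TPM. In fits that left out 1 library, the call was lost for Nfkbib without siRNA 2 replicate 2 or 3 or siRNA 1 replicate 3 (adjusted p up to 0.0877) and Il17ra without siRNA 2 replicate 1 or siRNA 1 replicate 3 (adjusted p up to 0.0864). On the TPM scale limma left uncalled Nfkbib (adjusted p = 0.0601), Il11ra1 (adjusted p = 0.454) and Il17ra (adjusted p = 0.0946).

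The 12 macrophage and leukocyte markers summed to 8.51 to 10.6 CPM with siRNA 2, 8.07 to 8.42 CPM with siRNA 1 and 8.97 to 10.3 CPM in controls. Of them 10 stayed under 1 CPM in every myoblast library, with Adgre1, Tyrobp, C1qa and C1qb at 0. Only 2 of them were tested. Cd14 was called higher (log2 difference 0.28, adjusted p = 0.0147), at 7.46, 8.24 and 8.66 CPM with siRNA 2 and 6.82, 6.43 and 6.75 CPM with siRNA 1. The call did not hold for Cd14 without siRNA 2 replicate 3 or siRNA 1 replicate 2 (adjusted p up to 0.0719). The 12 endothelial markers summed to 2 to 2.06 CPM with siRNA 2, 1.71 to 2.32 CPM with siRNA 1 and 1.84 to 2.17 CPM in controls, and 0 of the 3 tested were called.

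Genes of cholesterol synthesis were called higher with siRNA 2 but not lower. The pathway makes sterols from acetyl-CoA, and its genes share the sterol-sensitive activator SREBP2. Of 28 tested, 14 were called higher and 0 lower with siRNA 2 than with siRNA 1 (50% called). The list had a median log2 difference of 0.14 (0.14 within C14 and 0.09 within D2). Nsdhl, a sterol dehydrogenase, had 70.5, 71 and 71.7 CPM with siRNA 2, 58.7, 57.2 and 60.8 CPM with siRNA 1 and 59.4, 60 and 60.1 CPM in controls (log2 difference 0.27, SE 0.03, adjusted p = 5.92e-05). All 3 siRNA 2 libraries lay above the other 6, while the siRNA 1 libraries overlapped the controls. Other higher members had log2 differences of 0.17 for Stard4 (a cytosolic sterol carrier) and 0.19 for Fdps (farnesyl diphosphate synthase) (adjusted p of 0.00103 and 0.00133). Relative to control there were 13 higher and 1 lower with siRNA 2, and 3 higher and 1 lower with siRNA 1. The shares called of all genes were 33.5% and 20%. The cholesterol synthesis list had higher calls numbering 8 without siRNA 2 replicate 3 or siRNA 1 replicate 2 and 9 without siRNA 1 replicate 1.

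Hmgcs1, an early synthase of the pathway, is shown for its promoter, the only 1 of the 8 higher members with a RefSeq window (14 are higher) that holds the sterol response element TCACCCCAC on either strand (1 of 20 tested members; 0.614% of all genes with a window). It was chosen after its values were seen. It had 273, 262 and 268 CPM with siRNA 2, 248, 245 and 252 CPM with siRNA 1 and 259, 255 and 246 CPM in controls (log2 difference 0.11, adjusted p = 0.0161). The call was lost without siRNA 2 replicate 3 or siRNA 1 replicate 1 or 2 (adjusted p up to 0.0733). The same windows held the CCAAT box, searched as CCAAT on both strands, in 7 of the 8 higher members. It lay in 18 of the 20 tested members with a window and in 41.1% of all genes. Higher members thus held the CCAAT box no more often than the tested members as a whole. The sterol response element is in capitals below.
Hmgcs1 (chr13:119690101-119690400, plus strand): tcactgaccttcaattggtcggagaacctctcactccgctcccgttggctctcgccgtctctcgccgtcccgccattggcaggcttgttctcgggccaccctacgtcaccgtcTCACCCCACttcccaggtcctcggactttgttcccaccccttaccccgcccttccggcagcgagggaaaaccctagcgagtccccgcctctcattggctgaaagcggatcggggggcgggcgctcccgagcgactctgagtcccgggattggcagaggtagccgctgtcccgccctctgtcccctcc

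Among fatty acid synthesis genes, Acly and Acaca were lower with siRNA 2, while the list as a whole went both ways. Acly (chromosome 11, positions 100476353 to 100528000 of mm10) had 137, 151 and 141 CPM with siRNA 2, 305, 303 and 335 CPM with siRNA 1 and 337, 358 and 365 CPM in controls (log2 difference -1.14, SE 0.05, adjusted p = 6.3e-08). No siRNA 2 library reached any siRNA 1 or control library. Of 20 fatty acid synthesis genes tested, 4 were called higher and 3 lower with siRNA 2 than with siRNA 1 (35% called). The median log2 difference over the tested members was 0.06 (0.06 within C14 and 0.04 within D2). Lower were, by log2 difference, -1.14 for Acly (ATP citrate lyase, which makes cytosolic acetyl-CoA), -0.60 for Acaca (acetyl-CoA carboxylase, which makes malonyl-CoA) and -0.46 for Acsl3 (an acyl-CoA synthetase of the endoplasmic reticulum) (adjusted p between 6.3e-08 and 0.00684). On the higher side were 0.28 for Acsl4 (an acyl-CoA synthetase with a preference for arachidonate), 0.33 for Scd2 (a stearoyl-CoA desaturase), 0.25 for Scd1 (another stearoyl-CoA desaturase) and 0.15 for Elovl5 (a fatty acid elongase) (adjusted p between 0.000101 and 0.00905). Acaca had 161, 164 and 166 CPM with siRNA 2, 245, 240 and 258 CPM with siRNA 1 and 253, 252 and 257 CPM in controls, so the first steps of the pathway were lower and the desaturases Scd1 and Scd2 higher with siRNA 2.

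The type I TGF-beta receptor was higher with siRNA 2. Tgfbr1 (chromosome 4, positions 47353222 to 47414931 of mm10) had 83.8, 80.8 and 83.8 CPM with siRNA 2, 44.2, 45.1 and 46.5 CPM with siRNA 1 and 43.8, 46.8 and 47.9 CPM in controls (log2 difference 0.87, SE 0.04, adjusted p = 3.33e-08), with siRNA 1 and control overlapping. Of 34 TGF-beta and activin genes tested, 8 were called higher and 2 lower with siRNA 2 than with siRNA 1 (29.4% called). This share was close to the 26.3% of all genes. Over the tested members the median log2 difference was 0.08 (0.05 within C14 and 0.06 within D2). Higher were, by log2 difference, 0.87 for Tgfbr1 (the type I TGF-beta receptor), 0.34 for Smad3 (a receptor-activated signal transducer), 0.42 for Ltbp2 (a microfibril-associated protein of the same family) and 0.18 for Smurf2 (a ubiquitin ligase of SMADs and receptors) (adjusted p between 3.33e-08 and 0.000865). Members called lower were, as log2 differences, -0.72 for Ltbp1 (a latent TGF-beta binding protein) and -0.35 for Acvr1b (the activin type I receptor ALK4) (adjusted p between 1.17e-07 and 0.00145). Ltbp1, which stores latent TGF-beta in the matrix, had 172, 188 and 189 CPM with siRNA 2, 299, 297 and 312 CPM with siRNA 1 and 290, 305 and 305 CPM in controls.

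Of 20 BMP pathway and Id genes tested, 7 were called higher and 0 lower with siRNA 2 than with siRNA 1 (35% called). The median of the tested members was a log2 difference of 0.23 (0.21 within C14 and 0.20 within D2). The 4 with the smallest adjusted p had log2 differences of 0.31 for Rgmb (a BMP co-receptor), 0.19 for Smad1 (a BMP-activated signal transducer), 0.14 for Bmp1 (a procollagen and chordin protease) and 0.13 for Twsg1 (an extracellular BMP binding protein) (adjusted p between 0.00151 and 0.0144). The counts against control were 10 higher and 1 lower with siRNA 2, and 2 higher and 1 lower with siRNA 1. All genes stood at 33.5% and 20% called in these 2 comparisons. Osteoblast and chondrocyte markers, which respond to BMPs in C2C12 cells, summed to 2560 to 2900 CPM with siRNA 2, 2190 to 2280 CPM with siRNA 1 and 2610 to 3190 CPM in controls. Of 5 tested, 2 were called higher: Sp7 at 2.5 (adjusted p = 5.35e-05), with 0.684, 0.824 and 0.851 CPM with siRNA 2 and 0.177, 0.0951 and 0.133 CPM with siRNA 1, and Spp1 at 0.33 (adjusted p = 0.0149). The share called was 40% of these 5, against 26.3% of all genes. Bglap, Ibsp, Col2a1, Acan and 4 others of the 12, Sp7 included, stayed under 1 CPM in every library. Lost calls were those of Spp1 without siRNA 2 replicate 2 or 3 or siRNA 1 replicate 1 or 2 (adjusted p up to 0.0523). Adipocyte markers summed to 48.9 to 52 CPM with siRNA 2, 40.5 to 42.8 CPM with siRNA 1 and 44.7 to 48.8 CPM in controls. Of the 11, 7 stayed under 1 CPM throughout, Adipoq, Fabp4 and Plin1 among them. Lpl was called higher (0.44, adjusted p = 0.00259), the only 1 of 5 tested (20% called, against 26.3% of all genes). The part of either kind of cell in these results was not tested.

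Wnt receptors differed in both directions. Of 46 Wnt pathway genes tested, 10 were called higher and 5 lower with siRNA 2 than with siRNA 1 (32.6% called). As a median, the tested members stood at a log2 difference of 0.05 (0.08 within C14 and 0.07 within D2). Fzd7 had 117, 125 and 122 CPM with siRNA 2, 75.9, 74.4 and 77.8 CPM with siRNA 1 and 97.8, 105 and 105 CPM in controls (log2 difference 0.67, SE 0.04, adjusted p = 1.58e-07), lowest with siRNA 1 and highest with siRNA 2. By log2 difference, the higher members included 0.67 for Fzd7 (a Frizzled receptor), 0.35 for Tcf7l2 (a transcription factor that binds beta-catenin), 0.66 for Wnt10b (a Wnt ligand) and 0.25 for Fzd1 (a Frizzled receptor) (adjusted p between 1.58e-07 and 0.0017). The lower ones stood at -0.43 for Lrp5 (a Wnt co-receptor), -0.47 for Fzd5 (a Frizzled receptor), -0.51 for Dkk2 (a secreted Dickkopf protein) and -0.83 for Fzd9 (a Frizzled receptor) (adjusted p between 3.81e-07 and 0.0289). The Wnt list had lower calls numbering 3 without siRNA 2 replicate 2 or siRNA 1 replicate 3 and 3 with limma on TPM. Of 24 Notch pathway genes, 4 were called higher and 4 lower with siRNA 2 than with siRNA 1 (33.3% called), with log2 differences of 0.24 for Notch2 (a Notch receptor), 0.44 for Lfng (a glycosyltransferase that modifies Notch), 0.48 for Notch1 (a Notch receptor) and 0.19 for Hes1 (a repressor induced by Notch) (adjusted p between 2.7e-05 and 0.0459) on the higher side. Among those lower were -0.32 for Maml3 (a Mastermind co-activator), -0.24 for Jag2 (a Notch ligand), -0.14 for Maml1 (another Mastermind co-activator) and -0.16 for Dtx3 (a Deltex ubiquitin ligase) (adjusted p between 0.00183 and 0.0224). The Notch list had lower calls numbering 2 with limma on TPM. With 1 library left out, the call was lost for Fzd9 without siRNA 2 replicate 2 or 3 or siRNA 1 replicate 2 or 3 (adjusted p up to 0.0933), Hes1 without siRNA 2 replicate 1 or 3 or siRNA 1 replicate 1 or 2 or 3 (adjusted p up to 0.128), Maml1 without siRNA 2 replicate 1 or siRNA 1 replicate 1 or 3 (adjusted p up to 0.0749) and Dtx3 without siRNA 2 replicate 3 or siRNA 1 replicate 2 (adjusted p up to 0.091). It was also lost on the TPM scale, with limma, for Fzd9 (adjusted p = 0.0535), Maml1 (adjusted p = 0.146) and Dtx3 (adjusted p = 0.0608).

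In insulin and IGF signalling the kinase Akt1 was lower with siRNA 2. Akt1 had 262, 282 and 266 CPM with siRNA 2, 408, 391 and 416 CPM with siRNA 1 and 385, 379 and 389 CPM in controls (log2 difference -0.59, SE 0.03, adjusted p = 1.97e-07). All 3 siRNA 2 libraries lay below the other 6. Of 34 genes of the list tested, 8 were called higher and 4 lower with siRNA 2 than with siRNA 1 (35.3% called). Their median log2 difference was 0.11 (0.09 within C14 and 0.10 within D2). The higher side held log2 differences of 0.32 for Pik3r1 (the p85 alpha subunit of PI3 kinase), 0.37 for Igfbp6 (an IGF binding protein), 0.18 for Igf2r (the mannose 6-phosphate and IGF2 receptor) and 0.15 for Rictor (a subunit of mTOR complex 2) (adjusted p between 9.51e-06 and 0.004). Log2 differences of the lower members were -0.59 for Akt1 (a kinase downstream of PI3 kinase), -0.23 for Igf2bp2 (an RNA-binding protein) and -0.19 for Rptor (a subunit of mTOR complex 1) (adjusted p between 1.97e-07 and 0.00551).

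Extracellular matrix genes were higher with siRNA 2 more often than lower. These encode the collagens, laminins and fibrillins that myoblasts lay down around themselves. Of 52 tested, 27 were called higher and 1 lower with siRNA 2 than with siRNA 1 (53.8% called). The list had a median log2 difference of 0.22 (0.22 within C14 and 0.22 within D2). Without siRNA 2 replicate 3, 24 were higher and 1 lower. Fbn1 had 337, 324 and 348 CPM with siRNA 2, 265, 264 and 274 CPM with siRNA 1 and 190, 185 and 184 CPM in controls (log2 difference 0.33, SE 0.03, adjusted p = 1.05e-05), in the order siRNA 2, siRNA 1, control without overlap. Col5a1 had 585, 517 and 554 CPM with siRNA 2, 427, 433 and 420 CPM with siRNA 1 and 425, 384 and 394 CPM in controls (log2 difference 0.37, SE 0.05, adjusted p = 0.00014). Members higher with siRNA 2 had log2 differences of 0.33 for Fbn1 (fibrillin 1), 0.37 for Col5a1 (a fibrillar collagen V chain), 0.26 for Col5a2 (another collagen V chain) and 0.28 for Lamc1 (laminin gamma 1) (adjusted p between 1.05e-05 and 0.000162). Against control the list had 34 higher and 2 lower with siRNA 2, and 17 higher and 6 lower with siRNA 1. The shares called of all genes were 33.5% and 20%. The gene called lower was Fn1, the most abundant of those named, at 4770 ± 139 CPM with siRNA 2, 5740 ± 27.4 CPM with siRNA 1 and 6440 ± 290 CPM in controls (SD, n = 3 each; log2 difference -0.27, SE 0.03, adjusted p = 0.000122).

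Matrix proteases and their inhibitors also had more higher than lower calls: of 31 tested, 10 were called higher and 1 lower with siRNA 2 than with siRNA 1 (35.5% called). The median log2 difference over the tested members was 0.17 (0.20 within C14 and 0.23 within D2). Plau had 236, 257 and 259 CPM with siRNA 2, 165, 170 and 165 CPM with siRNA 1 and 195, 223 and 214 CPM in controls (log2 difference 0.59, SE 0.05, adjusted p = 5.72e-06), and Timp2 had 793, 819 and 823 CPM with siRNA 2, 639, 641 and 664 CPM with siRNA 1 and 414, 433 and 412 CPM in controls. Log2 differences on the higher side were 0.59 for Plau (urokinase), 0.33 for Timp2 (an inhibitor of metalloproteinases), 0.30 for Mmp14 (a membrane-anchored metalloproteinase) and 0.28 for Timp1 (another such inhibitor) (adjusted p between 5.72e-06 and 0.000788), and the lower gene was Adamts6, a secreted metalloproteinase, at -0.20 (adjusted p = 0.0471). The call ended for Adamts6 without siRNA 2 replicate 1 or 2 or siRNA 1 replicate 1 or 2 or 3 (adjusted p up to 0.158). With limma on TPM it was lost for Adamts6 (adjusted p = 0.149). Fibroblast markers had their highest sums with siRNA 2 as well. The 12 listed summed to 1610 to 1900 CPM with siRNA 2, 1280 to 1550 CPM with siRNA 1 and 1140 to 1400 CPM in controls. Of 7 tested 2 were called higher (28.6%, close to the 26.3% of all genes). They were Cd34 at a log2 difference of 0.28 (adjusted p = 0.00379) and Ly6a at 0.74 (adjusted p = 0.00472). Fap, Pi16, Dpt, Thy1 and Lum stayed under 1 CPM in every library and Tcf21 was at 0. The part of fibroblast-like cells in the matrix result was not tested, and in bulk RNA more cells of a type and more RNA per cell cannot be told apart.

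Cytoskeletal and adhesion genes were more often called higher than lower. Of 46 genes of actin dynamics and focal adhesion tested, 11 were called higher and 3 lower with siRNA 2 than with siRNA 1 (30.4% called). This share was near the 26.3% of all genes. Over the tested members the median log2 difference was 0.04 (0.06 within C14 and 0.05 within D2). Besides Itgb3, log2 differences on the higher side were 0.32 for Itga5 (the fibronectin receptor subunit integrin alpha 5), 0.27 for Limk1 (a kinase of cofilin) and 0.25 for Rhob (a small GTPase) (adjusted p between 3.31e-05 and 0.000269). Lower members had log2 differences of -0.95 for Lims2 (the focal adhesion protein PINCH2), -0.12 for Vasp (an actin filament elongation factor) and -0.18 for Src (a tyrosine kinase) (adjusted p between 0.0109 and 0.0215). Lims2 had 5.29, 7.99 and 7.92 CPM with siRNA 2, 11.7, 12 and 17.1 CPM with siRNA 1 and 11.3, 13.4 and 14.7 CPM in controls, with siRNA 1 and control overlapping. Targets and regulators of YAP, TAZ and SRF, which respond to cell tension, had 15 called higher and 3 lower of 44 (40.9% called). The median of the tested members was a log2 difference of 0.10 (0.10 within C14 and 0.05 within D2). Among those higher, log2 differences were 0.29 for Arhgef17 (a guanine nucleotide exchange factor), 0.40 for Fstl1 (a secreted follistatin-like protein), 0.23 for Mrtfb (an actin-regulated SRF co-activator) and 0.20 for Vcl (vinculin) (adjusted p between 2.54e-05 and 0.000956). On the lower side were -0.28 for Amotl1 (an angiomotin that binds YAP), -0.36 for Srf (serum response factor itself) and -0.14 for Mrtfa (the other SRF co-activator of that family) (adjusted p between 0.000161 and 0.0266). Against control both siRNAs had more members higher than lower: 26 higher and 3 lower with siRNA 2, and 19 higher and 2 lower with siRNA 1. The YAP, TAZ and SRF targets list had higher calls numbering 9 without siRNA 1 replicate 2, and lower calls numbering 1 without siRNA 2 replicate 1. In fits that left out 1 library, the call was lost for Src without siRNA 2 replicate 1 or siRNA 1 replicate 3 (adjusted p up to 0.0704), Srf without siRNA 2 replicate 1 (adjusted p = 0.0694) and Mrtfa without siRNA 2 replicate 1 or siRNA 1 replicate 2 or 3 (adjusted p up to 0.091). Limma on TPM did not call Vasp (adjusted p = 0.129), Src (adjusted p = 0.0559) and Mrtfa (adjusted p = 0.39).

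Regulators of myogenesis had more higher than lower calls with siRNA 2. Of 36 tested, 13 were called higher and 4 lower with siRNA 2 than with siRNA 1 (47.2% called). As a median, the tested members stood at a log2 difference of 0.20 (0.19 within C14 and 0.23 within D2). Higher were, by log2 difference, 0.24 for Mef2d (a myocyte enhancer factor), 0.27 for Kirrel (a nephrin-like adhesion protein), 0.19 for Nfatc3 (a calcium-regulated transcription factor) and 1.34 for Nfatc2 (another such factor) (adjusted p between 0.000115 and 0.000637). Members called lower were, as log2 differences, -0.31 for Met (the receptor of hepatocyte growth factor), -0.29 for Tcf3 (the E protein partner of MyoD), -0.65 for Msc (musculin, a bHLH repressor of MyoD) and -0.11 for Nfix (a nuclear factor of fetal myogenesis) (adjusted p between 1.62e-05 and 0.0161). Msc had 10.6, 12.4 and 11.1 CPM with siRNA 2, 18.9, 17.9 and 16.5 CPM with siRNA 1 and 10.1, 12.2 and 10.6 CPM in controls (log2 difference -0.65, SE 0.08, adjusted p = 0.00013), highest with siRNA 1. The muscle line markers checked the cell type: the 12 summed to 2990 to 3230 CPM with siRNA 2, 2680 to 2880 CPM with siRNA 1 and 2120 to 2480 CPM in controls, and only Cav3 stayed under 1 CPM. Of these 12 markers, 3 were called higher and 1 lower (33.3% called, against 26.3% of all genes). Pax7 (0.23, adjusted p = 0.000873), Myod1 (0.17, adjusted p = 0.0191) and Vcam1 (0.14, adjusted p = 0.0264) were the higher ones. Msc, at -0.65, was the lower one and differed the most. The part of these markers in the result was not tested. Set against control, the counts of the regulators were 15 higher and 3 lower with siRNA 2, and 7 higher and 6 lower with siRNA 1. All genes stood at 33.5% and 20% called in these 2 comparisons. Sarcomere genes, at 22.9% called, were not above the background in share, with 10 higher and 1 lower of 48, but the count became 29 and 2 with the prefix in the model. Their median log2 difference was 0.26, 0.43 within C14 and 0.62 within D2. The call did not hold for Nfix without siRNA 2 replicate 2 or siRNA 1 replicate 3 (adjusted p up to 0.0509), Myod1 without siRNA 2 replicate 2 or 3 or siRNA 1 replicate 1 or 2 (adjusted p up to 0.0901) and Vcam1 without siRNA 2 replicate 1 or siRNA 1 replicate 2 or 3 (adjusted p up to 0.0763). On the TPM scale limma left uncalled Nfix (adjusted p = 0.143) and Vcam1 (adjusted p = 0.0526).

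Cell cycle genes went both ways in each phase list, with more called higher than lower in each. The G1 list had a median log2 difference of 0.08 (0.13 within C14 and 0.11 within D2). Of 21 G1 regulators tested, 7 were called higher and 1 lower with siRNA 2 than with siRNA 1 (38.1% called), and besides Ccnd2 the log2 differences were 0.41 for E2f6 (an E2F repressor), 0.53 for Ccnd3 (cyclin D3) and 0.36 for Cdkn1a (the cyclin-dependent kinase inhibitor p21) (adjusted p between 1.98e-06 and 0.00716) on the higher side. Those lower stood at -0.14 for E2f4 (an E2F factor of quiescent cells) (adjusted p = 0.00641). Ccnd3 had 245, 217 and 218 CPM with siRNA 2, 162, 162 and 148 CPM with siRNA 1 and 153, 129 and 122 CPM in controls, and Cdkn1a, an inhibitor, was at 263, 234 and 232 CPM with siRNA 2, 190, 194 and 182 CPM with siRNA 1 and 211, 176 and 178 CPM in controls. Cyclins D2 and D3 and this inhibitor of their kinases were thus all higher with siRNA 2. Of 52 S phase genes, 17 were called higher and 11 lower with siRNA 2 than with siRNA 1 (53.8% called). Their median log2 difference was 0.05 (0.05 within C14 and 0.03 within D2). By log2 difference, the higher members included 0.33 for Rrm2 (the ribonucleotide reductase subunit M2), 0.41 for E2f1 (an activator of S phase genes), 0.35 for Pola2 (a DNA polymerase alpha subunit) and 0.26 for Tk1 (thymidine kinase 1) (adjusted p between 7.04e-06 and 5.98e-05). The lower ones stood at -0.69 for Chaf1a (the large subunit of chromatin assembly factor 1), -0.43 for Pold3 (a DNA polymerase delta subunit), -0.28 for Gins2 (a GINS helicase subunit) and -0.22 for Mcm3 (an MCM helicase subunit) (adjusted p between 8.68e-08 and 0.000215). Chaf1a had 63, 67.9 and 65.5 CPM with siRNA 2, 104, 104 and 109 CPM with siRNA 1 and 102, 105 and 101 CPM in controls (log2 difference -0.69, SE 0.04, adjusted p = 8.68e-08), with siRNA 1 and control overlapping. Of 51 mitosis genes, 15 were called higher and 6 lower with siRNA 2 than with siRNA 1 (41.2% called). The list had a median log2 difference of 0.05 (0.08 within C14 and 0.03 within D2). By log2 difference, the lower members included -0.61 for Incenp (the inner centromere protein of the chromosomal passenger complex), -0.54 for Cenpf (a kinetochore protein), -0.28 for Spc25 (a subunit of the Ndc80 kinetochore complex) and -0.13 for Prc1 (a microtubule bundler of the central spindle) (adjusted p between 2.27e-08 and 0.0048). Members called higher were, as log2 differences, 0.23 for Kif23 (a kinesin of the midbody), 0.20 for Cdk1 (the mitotic cyclin-dependent kinase), 0.20 for Aurkb (the kinase of the chromosomal passenger complex) and 0.18 for Hmmr (a spindle-associated protein) (adjusted p between 7.55e-05 and 0.00377). Incenp had 105, 103 and 106 CPM with siRNA 2, 160, 158 and 161 CPM with siRNA 1 and 156, 155 and 155 CPM in controls (log2 difference -0.61, SE 0.03, adjusted p = 2.27e-08), below all other libraries in the 3 of siRNA 2. The S phase list had higher calls numbering 11 without siRNA 1 replicate 2. The mitosis list had higher calls numbering 8 without siRNA 1 replicate 1 and 9 without siRNA 2 replicate 3. With limma on TPM the call was lost for Prc1 (adjusted p = 0.0696).

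Targets of p53, which link DNA damage to arrest and death, had 11 called higher and 4 lower of 37 (40.5% called). The median log2 difference over the tested members was 0.06 (0.09 within C14 and 0.05 within D2). The higher side held log2 differences of 0.68 for Gadd45b (a growth arrest and DNA damage protein), 0.23 for Gtse1 (a G2 and S phase protein that binds p53), 0.38 for Trp53inp1 (a p53-induced nuclear protein) and 0.36 for Cdkn1a (adjusted p between 3.74e-05 and 0.00716). Log2 differences of the lower members were -0.69 for Ei24 (a p53-induced protein of the endoplasmic reticulum), -0.68 for Plk2 (a polo-like kinase), -0.34 for Xpc (a nucleotide excision repair factor) and -0.15 for Bax (a pore-forming BCL2 family protein) (adjusted p between 1.6e-07 and 0.00367). Ei24 had 31.5, 32.4 and 32.1 CPM with siRNA 2, 49.9, 51 and 53.5 CPM with siRNA 1 and 30.9, 32.5 and 31.7 CPM in controls (log2 difference -0.69, SE 0.04, adjusted p = 1.6e-07); siRNA 1 alone lay above the controls. Gadd45b had 17.1, 16.5 and 19 CPM with siRNA 2, 10.9, 10.2 and 11.8 CPM with siRNA 1 and 9.28, 8.65 and 9.7 CPM in controls. Of 45 DNA repair genes, 3 were called higher and 9 lower with siRNA 2 than with siRNA 1 (26.7% called, close to the 26.3% of all genes), with a median log2 difference of -0.01. Its sign changed under 6 of 15 alternatives. Log2 differences were 0.21 for Rad54l (a homologous recombination factor) and 0.20 for Pms2 (a mismatch repair protein) (adjusted p of 0.00164 and 0.0105) on the higher side. The lower side held -0.19 for H2afx (the histone H2AX), -0.19 for Atr (a checkpoint kinase) and -0.18 for Xrcc5 (Ku80 of end joining) (adjusted p between 0.00125 and 0.00655). The DNA repair list had lower calls numbering 4 without siRNA 2 replicate 2 or siRNA 1 replicate 1, 5 without siRNA 2 replicate 3 or siRNA 1 replicate 2 and 1 with limma on TPM. Of 33 apoptosis genes, 6 were called higher and 7 lower with siRNA 2 than with siRNA 1 (39.4% called), with 0.33 for Bak1 (a pore-forming BCL2 family protein), 0.42 for Bcl2l11 (the BH3-only protein BIM), 0.16 for Xiap (an apoptosis inhibitor) and 0.17 for Casp8 (an initiator caspase) (adjusted p between 7.42e-06 and 0.00955) on the higher side. Among those lower were -0.23 for Bnip3l (a mitophagy receptor of the BCL2 family), -0.25 for Bcl2l2 (the survival protein BCL-W), -0.15 for Bax and -0.20 for Diablo (a mitochondrial antagonist of apoptosis inhibitors) (adjusted p between 0.000483 and 0.00578), again as log2 differences; the median was -0.02. Its sign changed under 7 of 15 alternatives. The apoptosis list had lower calls numbering 3 with limma on TPM. The call was lost for Pms2 without siRNA 2 replicate 3 or siRNA 1 replicate 1 (adjusted p up to 0.0541). It was also lost on the TPM scale, with limma, for Pms2 (adjusted p = 0.0891), Atr (adjusted p = 0.111), Xrcc5 (adjusted p = 0.0679), Bcl2l2 (adjusted p = 0.111) and Diablo (adjusted p = 0.0651).

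In the integrated stress and unfolded protein response, 11 of 44 were called higher and 7 lower (40.9% called). Over the tested members the median log2 difference was 0.05 (0.07 within C14 and 0.03 within D2). The 4 higher members with the smallest adjusted p had log2 differences of 0.21 for Pdia3 (a protein disulfide isomerase), 0.21 for Calr (the chaperone calreticulin), 0.17 for Hsp90b1 (the chaperone GRP94) and 0.12 for Pdia6 (another disulfide isomerase) (adjusted p between 0.000265 and 0.00522). The 4 such lower members stood at -0.81 for Ddit3 (the stress-induced factor CHOP), -0.36 for Atf5 (a stress-induced transcription factor), -0.20 for Cebpb (a bZIP transcription factor) and -0.19 for Shmt2 (the mitochondrial serine hydroxymethyltransferase) (adjusted p between 2.54e-06 and 0.0102). Ddit3 had 12.7, 14.2 and 12.2 CPM with siRNA 2, 23.3, 23.7 and 21.2 CPM with siRNA 1 and 19.2, 19.5 and 18.4 CPM in controls (log2 difference -0.81, SE 0.06, adjusted p = 2.54e-06), lowest with siRNA 2. Relative to control there were 24 higher and 3 lower with siRNA 2, and 13 higher and 3 lower with siRNA 1. The shares called of all genes were 33.5% and 20%. The integrated stress and unfolded protein response list had higher calls numbering 6 without siRNA 2 replicate 3 or siRNA 1 replicate 2 and 7 without siRNA 2 replicate 2 or siRNA 1 replicate 1, and lower calls numbering 4 without siRNA 2 replicate 2 or siRNA 1 replicate 1 or 2 and 3 with limma on TPM. Cytosolic heat shock genes had 7 higher and 10 lower of 27 (63% called), with a median log2 difference of 0.01. Its sign changed under 8 of 15 alternatives. Members higher with siRNA 2 had log2 differences of 0.28 for Dnajb4 (an HSP40 co-chaperone), 0.17 for Bag3 (an HSP70 co-chaperone), 0.18 for Hspb1 (the small heat shock protein HSP27) and 0.42 for Hspa1a (an inducible HSP70) (adjusted p between 0.000371 and 0.0028). Lower members had log2 differences of -0.39 for Fkbp4 (an HSP90 co-chaperone), -0.25 for Tcp1 (a subunit of the chaperonin CCT), -0.28 for Ahsa1 (an activator of the HSP90 ATPase) and -0.12 for Cct5 (another CCT subunit) (adjusted p between 3.38e-06 and 0.00251). Fkbp4 had 196, 206 and 194 CPM with siRNA 2, 261, 260 and 259 CPM with siRNA 1 and 261, 253 and 243 CPM in controls. The cytosolic heat shock list had lower calls numbering 6 without siRNA 2 replicate 1 or 3 or siRNA 1 replicate 1 or 2. Limma applied to TPM left uncalled Shmt2 (adjusted p = 0.0574).

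Oxidative stress genes, many of them targets of NRF2, were more often called higher than lower with siRNA 2: of 34 tested, 15 were called higher and 4 lower with siRNA 2 than with siRNA 1 (55.9% called). The median of the tested members was a log2 difference of 0.10 (0.13 within C14 and 0.08 within D2). Log2 differences on the higher side were 0.26 for Gsr (glutathione reductase), 0.23 for Txnrd1 (thioredoxin reductase 1), 0.34 for Ftl1 (ferritin light chain) and 0.21 for Tkt (transketolase) (adjusted p between 8.35e-05 and 0.000253). On the lower side were -0.43 for Prdx3 (the mitochondrial peroxiredoxin 3), -0.19 for Gss (glutathione synthetase), -0.15 for Srxn1 (sulfiredoxin) and -0.10 for Cat (catalase) (adjusted p between 2.05e-06 and 0.0496). Txnrd1 had 732, 708 and 723 CPM with siRNA 2, 613, 600 and 636 CPM with siRNA 1 and 804, 805 and 815 CPM in controls, lower than control with both siRNAs and lowest with siRNA 1. The counts against control were 7 higher and 6 lower with siRNA 2, and 2 higher and 13 lower with siRNA 1. Prdx3 had 51.6, 53.1 and 51.9 CPM with siRNA 2, 69.8, 72.1 and 69.9 CPM with siRNA 1 and 69.4, 68.6 and 65.2 CPM in controls (log2 difference -0.43, SE 0.03, adjusted p = 2.05e-06). The oxidative stress response list had lower calls numbering 2 without siRNA 2 replicate 1 or 2 or 3 or siRNA 1 replicate 3 and 1 with limma on TPM. With 1 library left out, the call was lost for Gss without siRNA 2 replicate 1 (adjusted p = 0.073), Srxn1 without siRNA 2 replicate 1 or 2 or 3 or siRNA 1 replicate 3 (adjusted p up to 0.0712) and Cat without siRNA 2 replicate 2 or 3 or siRNA 1 replicate 1 or 2 or 3 (adjusted p up to 0.198). With limma on TPM it was lost for Gss (adjusted p = 0.281), Srxn1 (adjusted p = 0.142) and Cat (adjusted p = 0.129).

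Hypoxia-responsive genes had 3 called higher and 7 lower of 28 (35.7% called). As a median, the tested members stood at a log2 difference of -0.04 (-0.03 within C14 and -0.07 within D2). The lower side held log2 differences of -0.85 for Mxi1 (a MAX-binding repressor), -0.44 for Ndrg1 (a hypoxia-induced protein), -0.28 for Slc2a1 (the glucose transporter GLUT1) and -0.23 for Ero1l (an endoplasmic reticulum oxidase) (adjusted p between 1.7e-05 and 0.00052). The higher ones stood at 0.42 for Stc2 (stanniocalcin 2), 0.23 for Vegfa (vascular endothelial growth factor A) and 0.42 for Angptl4 (an inhibitor of lipoprotein lipase) (adjusted p between 0.000201 and 0.00437). Mxi1 had 14.2, 13.9 and 12.9 CPM with siRNA 2, 26.5, 25.4 and 21.9 CPM with siRNA 1 and 20.8, 18.7 and 17.3 CPM in controls, with siRNA 1 above control and siRNA 2 below it. Of 31 glycolysis genes, 5 were called higher and 4 lower with siRNA 2 than with siRNA 1 (29% called), with 0.21 for Eno3 (the muscle enolase), 0.35 for Pfkfb4 (a kinase and phosphatase of fructose bisphosphate), 0.15 for Pkm (pyruvate kinase) and 0.10 for Gapdh (glyceraldehyde 3-phosphate dehydrogenase) (adjusted p between 0.000201 and 0.0128) on the higher side. Those lower stood at -0.28 for Slc2a1, -0.33 for Pfkl (the liver-type phosphofructokinase), -0.29 for Hk2 (hexokinase 2) and -0.35 for Slc16a3 (the lactate transporter MCT4) (adjusted p between 0.000149 and 0.0231), as log2 differences. The share of glycolysis genes called was close to the 26.3% of all genes. The glycolysis list had higher calls numbering 3 without siRNA 1 replicate 1. The call ended for Gapdh without siRNA 1 replicate 1 or 2 (adjusted p up to 0.0571), Hk2 without siRNA 1 replicate 3 (adjusted p = 0.0558) and Slc16a3 without siRNA 2 replicate 2 or 3 or siRNA 1 replicate 1 or 2 (adjusted p up to 0.0831).

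Proteasome genes were more often called lower than higher with siRNA 2. Of 34 tested, 3 were called higher and 13 lower with siRNA 2 than with siRNA 1 (47.1% called). Their median log2 difference was -0.05 (0.00 within C14 and -0.07 within D2). Psmd2 (chromosome 16, positions 20651652 to 20663414 of mm10) had 326, 343 and 327 CPM with siRNA 2, 506, 507 and 520 CPM with siRNA 1 and 528, 522 and 528 CPM in controls (log2 difference -0.62, SE 0.03, adjusted p = 2.91e-08). All 3 siRNA 2 libraries lay below the other 6, and siRNA 1 was just under control. Members lower with siRNA 2 had log2 differences of -0.62 for Psmd2 (a large subunit of the regulatory particle), -0.29 for Psmd7 (a lid subunit), -0.23 for Psmd11 (another lid subunit) and -0.19 for Psmc2 (an ATPase subunit) (adjusted p between 2.91e-08 and 0.000685). Higher members had log2 differences of 0.20 for Psmc1 (another ATPase subunit), 0.19 for Psme2 (a subunit of the PA28 activator) and 0.10 for Psmd1 (a large subunit of the base) (adjusted p between 0.000504 and 0.0216). Against control the list had 5 higher and 11 lower with siRNA 2, and 5 higher and 3 lower with siRNA 1. The proteasome list had lower calls numbering 7 with limma on TPM. In fits that left out 1 library, the call was lost for Psmd1 without siRNA 2 replicate 3 or siRNA 1 replicate 1 or 2 (adjusted p up to 0.0964). Limma on TPM did not call Psme2 (adjusted p = 0.0571). Genes of vesicle traffic and secretion had 12 of 43 called lower against 4 higher (37.2% called). The list had a median log2 difference of -0.02 (-0.01 within C14 and -0.05 within D2). Golga2 had 66.2, 67.6 and 65.9 CPM with siRNA 2, 110, 112 and 108 CPM with siRNA 1 and 106, 107 and 104 CPM in controls (log2 difference -0.72, SE 0.03, adjusted p = 1.39e-08), with siRNA 1 just above every control. Log2 differences were -0.72 for Golga2 (the Golgi matrix protein GM130), -0.24 for Rab7 (a late endosome GTPase), -0.20 for Golgb1 (the Golgi tether giantin) and -0.21 for Snx2 (a retromer-associated sorting nexin) (adjusted p between 1.39e-08 and 0.000529) on the lower side and 0.15 for Arf4 (a small GTPase of the Golgi), 0.13 for Rab1b (a GTPase of traffic to the Golgi), 0.09 for Rab1a (the other Rab1 GTPase) and 0.12 for Sar1b (the GTPase that starts COPII coats) (adjusted p between 0.00111 and 0.0394) on the higher. Against control this list had 17 higher and 9 lower with siRNA 2, and 20 higher and 0 lower with siRNA 1, so both siRNAs had more members above control than below. The vesicle traffic and secretion list had higher calls numbering 2 without siRNA 2 replicate 1 or 3 or siRNA 1 replicate 2 or 3, and lower calls numbering 7 without siRNA 1 replicate 1 and 4 with limma on TPM. The call did not hold for Rab1b without siRNA 1 replicate 2 (adjusted p = 0.0557), Rab1a without siRNA 2 replicate 1 or 3 or siRNA 1 replicate 2 or 3 (adjusted p up to 0.0723) and Sar1b without siRNA 2 replicate 1 or 2 or 3 or siRNA 1 replicate 1 or 2 or 3 (adjusted p up to 0.12). On the TPM scale limma left uncalled Golgb1 (adjusted p = 0.0804).

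Of 48 splicing factor genes, 7 were called higher and 12 lower with siRNA 2 than with siRNA 1 (39.6% called). The median log2 difference over the tested members was -0.03 (-0.01 within C14 and -0.05 within D2). Lower were, by log2 difference, -0.43 for Snrnp70 (the U1 snRNP 70K protein), -0.34 for Hnrnpm (an hnRNP protein), -0.29 for Ptbp2 (a polypyrimidine tract binding protein) and -0.18 for Srsf4 (an SR protein) (adjusted p between 5.2e-07 and 0.000513). On the higher side were 0.31 for Mbnl1 (a muscleblind splicing regulator), 0.22 for Mbnl2 (another muscleblind protein), 0.20 for Srsf7 (another SR protein) and 0.21 for Celf2 (a CELF splicing regulator) (adjusted p between 9.11e-05 and 0.000796). Snrnp70 had 152, 161 and 155 CPM with siRNA 2, 211, 211 and 207 CPM with siRNA 1 and 220, 216 and 218 CPM in controls. Set against control, the counts were 5 higher and 21 lower with siRNA 2, and 3 higher and 11 lower with siRNA 1. The splicing factors list had lower calls numbering 5 with limma on TPM. Chromatin remodellers and modifiers were more often higher, 17 against 7 lower of 54 (44.4% called). Over the tested members the median log2 difference was 0.06 (0.07 within C14 and 0.05 within D2). Among those higher, log2 differences were 0.46 for Hdac4 (a class IIa histone deacetylase), 0.48 for Dnmt3a (a DNA methyltransferase), 0.67 for Tet1 (a methylcytosine dioxygenase) and 0.29 for Tet3 (another such dioxygenase) (adjusted p between 5.51e-06 and 0.000219). Members called lower were, as log2 differences, -0.32 for Smarca4 (the BRG1 remodelling ATPase), -0.37 for Mrgbp (a subunit of the TIP60 acetyltransferase complex), -0.19 for Kdm5c (a histone H3 lysine 4 demethylase) and -0.37 for Kat2a (the acetyltransferase GCN5) (adjusted p between 1.49e-05 and 0.000685). Tet1 had 11.7, 10.1 and 11.4 CPM with siRNA 2, 7.14, 7.27 and 6.53 CPM with siRNA 1 and 7.36, 7.42 and 8.17 CPM in controls, and Hdac4 had 42.7, 43 and 46.1 CPM with siRNA 2, 32.2, 32.1 and 31.7 CPM with siRNA 1 and 45.6, 47.6 and 48.3 CPM in controls, with siRNA 1 lowest. Tubulins and microtubule regulators had 8 higher and 5 lower of 43 (30.2% called), with 0.38 for Tubb3 (a beta tubulin), 0.17 for Map1a (a microtubule-associated protein), 0.22 for Mapre2 (an end-binding protein) and 0.16 for Map1b (another microtubule-associated protein) (adjusted p between 8.91e-06 and 0.00326) on the higher side. The lower side held -0.31 for Map6 (a microtubule stabiliser), -0.14 for Tuba1c (an alpha tubulin), -0.23 for Map1s (a short microtubule-associated protein) and -0.27 for Vash1 (a tubulin carboxypeptidase) (adjusted p between 2.7e-05 and 0.0135), as log2 differences. Of the neural and glial markers, which summed to 511 to 593 CPM with siRNA 2, 607 to 656 CPM with siRNA 1 and 552 to 642 CPM in controls, Tubb3 was called higher and Nefl lower (-0.44, adjusted p = 0.00905), with Sox10 at 0. Of the 6 neural and glial markers tested 33.3% were called, and of tubulins and microtubule regulators 30.2%, near the 26.3% of all genes. The tubulins and microtubule regulators list had higher calls numbering 4 without siRNA 1 replicate 1 or 2 and 5 without siRNA 2 replicate 2 or 3, and lower calls numbering 3 without siRNA 2 replicate 2 or 3. Lost calls were those of Vash1 without siRNA 2 replicate 2 or 3 or siRNA 1 replicate 1 (adjusted p up to 0.0606). It was also lost on the TPM scale, with limma, for Mapre2 (adjusted p = 0.0526).

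The remaining lists held no larger share of calls than all genes in the fit without the prefix. Of 55 nuclear genes of oxidative phosphorylation, 2 were called higher and 4 lower with siRNA 2 than with siRNA 1 (10.9% called). Of 61 cytosolic ribosomal protein genes 1 was higher and 13 were lower (23%), and of 40 MAPK and immediate early genes 9 were higher and 0 lower (22.5%). Fatty acid oxidation had 3 and 2 of 25, lysosome and autophagy 5 and 4 of 40, excitation-contraction coupling 6 and 2 of 31, imprinted genes 4 and 0 of 20, sensors of double-stranded RNA 2 and 1 of 12, and replication-dependent histones 0 and 2 of 22, higher first. For several of them the share depended on the fit. With the prefix in the model, where 40.2% of all genes were called, MAPK and immediate early genes had 17 higher and 6 lower (57.5%). Excitation-contraction coupling then had 14 and 3 (54.8%), imprinted genes 10 and 0 (50%), lysosome and autophagy 8 and 11 (47.5%) and ribosomal proteins 3 and 23 (42.6%). DESeq2 called 25.6% of all genes, and 14 higher and 2 lower (40%) of the MAPK list. Without siRNA 2 replicate 1 the MAPK list had 16 higher calls, ribosomal proteins 21 lower and oxidative phosphorylation 8 lower. Lower calls of ribosomal proteins came to between 5 and 8 without siRNA 2 replicate 2 or 3 or siRNA 1 replicate 1 or 2. Higher calls of excitation-contraction coupling came to 1 without siRNA 1 replicate 1 and to 2 without siRNA 1 replicate 2 or siRNA 2 replicate 3. A share that misses that of all genes does not show that the siRNAs act alike on these genes.

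**Figure D3:**
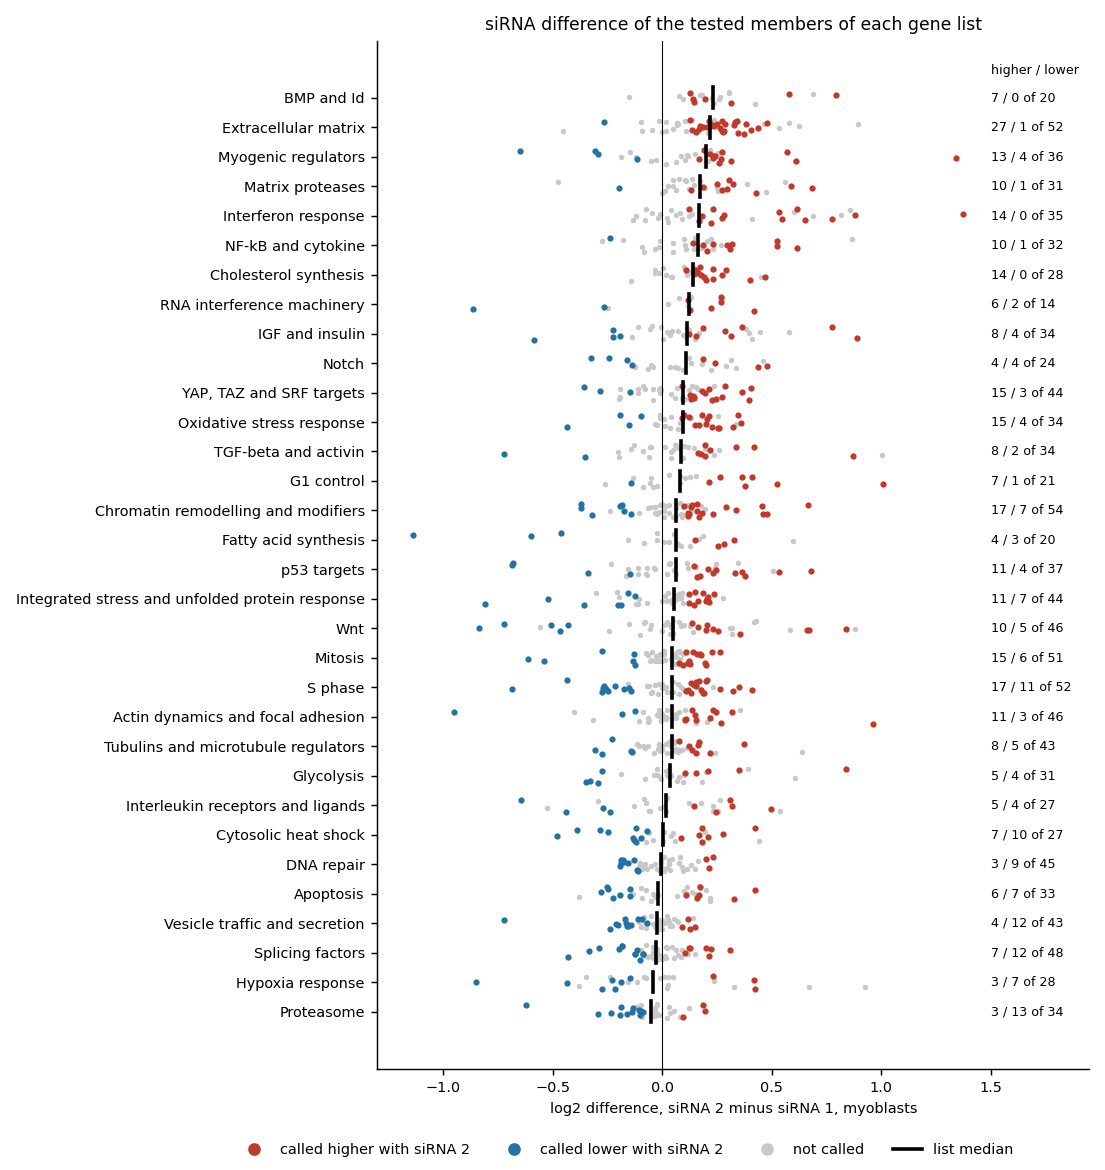
Log2 difference of siRNA 2 from siRNA 1 in myoblasts (x axis) for every tested member of the 32 gene lists described, sorted by median (black bar); red and blue points are called higher and lower with siRNA 2, grey points are not called, and the counts stand at the right. BMP and Id, extracellular matrix and myogenic lists have the highest medians, and proteasome the lowest, with 13 of 34 members called lower.

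**Figure D4:**
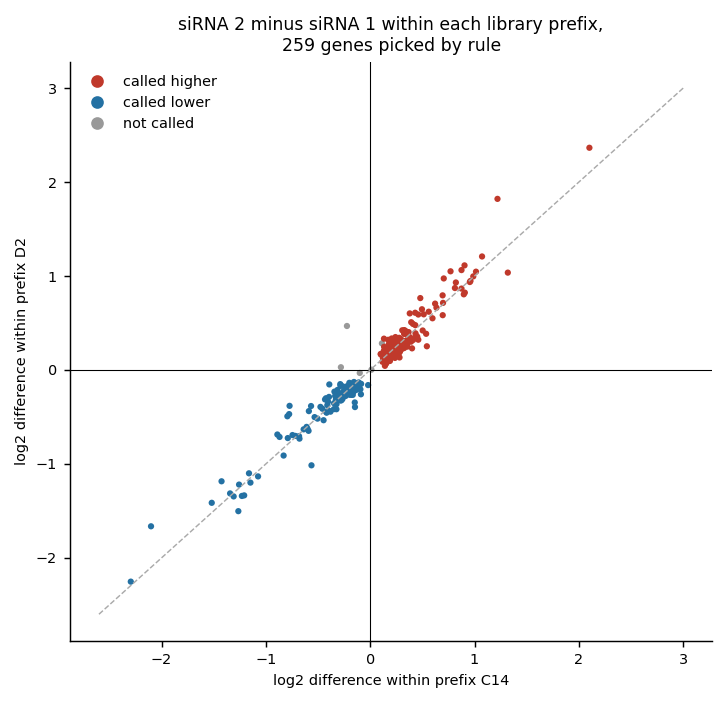
Log2 difference of siRNA 2 from siRNA 1 within C14 libraries (x axis) and within D2 libraries (y axis) for the 259 genes picked by the naming rules; red and blue mark called genes, grey uncalled ones, and the dashed line is equality. The 254 called genes, called from these same libraries, lie in the lower left or upper right quadrant.

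The prefix comparison does not use the controls: each siRNA difference could be read in each prefix, from 1 siRNA 2 and 2 siRNA 1 libraries of C14 and from 2 siRNA 2 and 1 siRNA 1 libraries of D2. Dusp9 gave -2.29 and -2.25, Ccnd2 1.01 and 1.05, Acly -1.15 and -1.2, Drosha -0.83 and -0.91, and Psmd2 -0.64 and -0.63, as log2 differences within C14 and within D2. These genes were called from the same 6 libraries, so their sign within a prefix is no independent check of the call.

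The same siRNAs were compared in myotubes, in other libraries. The labels do not say whether the cultures were separate from those of the myoblasts. Of 16097 genes tested there, 2755 (17.1%) were called, 1249 (7.76%) higher and 1506 (9.36%) lower with siRNA 2 than with siRNA 1. The count was 1762 without myotube siRNA 1 replicate 3, 1814 without siRNA 1 replicate 2 and 1817 without siRNA 2 replicate 2. Of the 4072 myoblast calls tested in myotubes, 2850 (70%) had the same sign and 907 were called with it, which is 22.3% of the myoblast calls and 34.9% of the myotube calls tested in myoblasts. Across 14825 genes the siRNA differences of the stages had a Pearson r of 0.20, and of 0.44 over the myoblast calls; genes are not independent replicates. Of the 12 genes on the lower side in the plot against control, 9 were called lower in myotubes too, and of the 12 on the higher side 5 were called higher. Zdhhc4 had log2 differences of -1.40 in myoblasts and -1.3 in myotubes, with myotube levels of 10.1, 9.01 and 9.8 CPM with siRNA 2 and 23.5, 23.5 and 24.5 CPM with siRNA 1. Cpt2 had -1.31 and -0.99, Ankrd13a -1.31 and -0.95, Tbc1d10b -1.28 and -0.93, Drosha -0.86 and -0.50, and Ccnd2 1.01 and 0.57, in the same order.

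Where the siRNA difference itself differed between stages was tested in 1 fit of all 18 libraries. It did for 2354 of 16930 genes (13.9%), 1576 of the 4102 myoblast calls among them. Dusp9 had a log2 difference of -2.10 in myoblasts and -0.23 in myotubes (adjusted p of the stage difference = 0.000484), and Npr3 -1.71 and -0.11 (adjusted p = 0.00179). Rassf8 had 0.97 and -0.06 (adjusted p = 1.14e-06), Incenp -0.61 and 0.02 (adjusted p = 1.1e-06) and Golga2 -0.72 and -0.20 (adjusted p = 1.14e-06). Msc and Dkk2 were lower in myoblasts and higher in myotubes with siRNA 2, at -0.65 and 1.02 and at -0.51 and 1.32.

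By list, oxidative phosphorylation differed between stages: 42 of 55 genes were called higher with siRNA 2 in myotubes and 0 lower, against 2 and 4 in myoblasts, and the stage difference was called for 42. Of all genes, 12.1% were called higher and 14.3% lower in myoblasts, and 7.76% and 9.36% in myotubes. The stage difference was called for 13.9% of all genes, 972 more positive and 1382 more negative in myoblasts. The actin and focal adhesion list had 11 higher and 3 lower in myoblasts, and 0 and 10 in myotubes, with stage differences called for 13 more positive and 0 more negative in myoblasts of 46 tested. YAP, TAZ and SRF targets had 15 and 3 in myoblasts and 3 and 15 in myotubes (9 more positive and 1 more negative in myoblasts of 44 tested). Interferon genes had 14 and 0 in myoblasts and 2 and 6 in myotubes (7 more positive and 0 more negative in myoblasts of 38 tested). Proteasome genes had 3 and 13 in myoblasts and 10 and 3 in myotubes (1 more positive and 15 more negative in myoblasts of 34 tested). Matrix genes had 27 and 1 in myoblasts and 8 and 1 in myotubes (6 more positive and 4 more negative in myoblasts of 54 tested). BMP and Id genes had 7 and 0 in myoblasts and 4 and 0 in myotubes (1 more positive and 0 more negative in myoblasts of 23 tested). In myotubes the matrix list and the BMP and Id list each had a share called, in either direction, near that of all genes. The matrix list had median log2 differences of 0.22 in myoblasts and 0.13 in myotubes. For the BMP and Id list they were 0.23 and 0.22. Cholesterol synthesis genes had 14 and 0 in myoblasts and 1 and 0 in myotubes, with median log2 differences of 0.14 and 0.20 (0 more positive and 1 more negative in myoblasts of 30 tested).

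**Figure D5:**
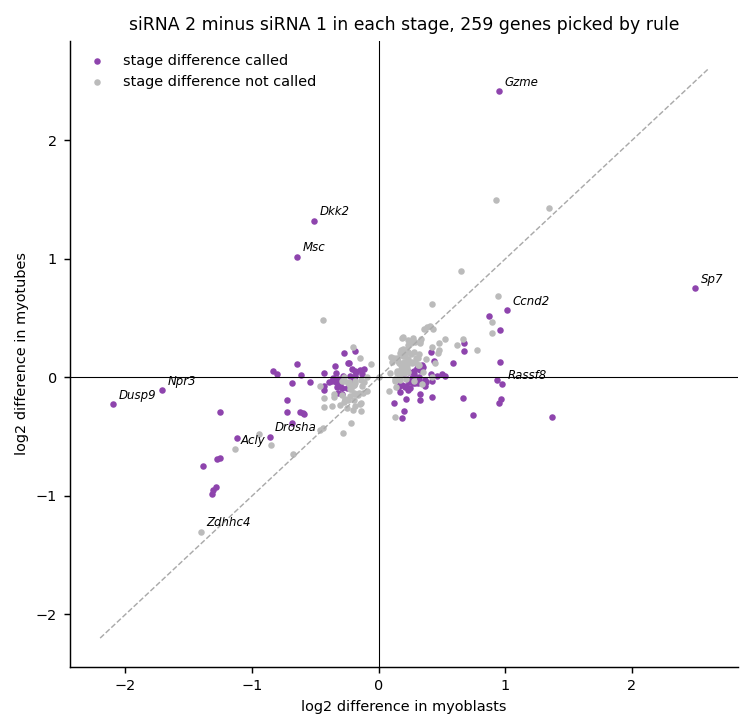
Log2 difference of siRNA 2 from siRNA 1 in myoblasts (x axis) and in myotubes (y axis) for the 259 genes picked by the naming rules; purple points are the 117 whose difference between stages was called, grey points the rest, and the dashed line is equality. Zdhhc4 lies near the line, Dusp9 and Npr3 lie near 0 in myotubes, and Msc and Dkk2 lie in the upper left quadrant.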

How the data were processed

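Deposited tables gave, per the file headers, the length, TPM (transcript abundance scaled to a fixed total per library) and estimated number of reads of 115088 mouse transcripts in each library, 1 table per stage. No header or label names the quantifier or the annotation, and the submitters' processing notes name mm10 and DESeq2 with no role. The estimated counts, as deposited, were summed per gene over the 114200 transcripts matched to a gene and rounded to whole numbers. The strand of the libraries is not given, so reads of overlapping genes on opposite strands may be mixed.

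Gene counts were tested with edgeR 4.0.16 in R 4.3.3 (quasi-likelihood, robust, TMM scaling, minimum count of 10 by filterByExpr) over the 9 myoblast libraries in 3 groups. Called means a Benjamini-Hochberg adjusted p under 0.05 over all genes tested. Myotubes were fitted alike, and the difference between stages was tested over all 18 libraries in 6 groups. CPM are counts scaled to the TMM-adjusted library size. Libraries are labelled as replicates, with nothing on separate cultures, so p-values measure the spread between these libraries, which may be technical. Replicates differed by more than sampling noise (mean chi-square per gene of at least 2.6).

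Named genes were Setd2, Setd3 and the enzymes of lysine 36, the 12 called protein-coding genes furthest apart in each direction (mean of at least 5 CPM in either siRNA group, no overlap of libraries), and in each list with at least 5 called members and a share above that of all genes, or of cell type markers, the 4 called members with the smallest adjusted p each way. A few genes picked by these rules are not reported here. The members and lists were chosen with earlier results of these data known. The alternatives were RLE scaling, no filter on low counts, DESeq2 1.42.0, the library prefix or replicate number in the model, same-prefix libraries summed, no controls in the fit, no genes of ribosomal RNA sequence, limma 3.58.1 on log2(TPM + 0.5) and each library left out. The procedure was tested on simulated data.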

Additional observations from a re-analysis of the deposited data

Results flagged for a closer look

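For 117 of the 259 named genes the difference between siRNA 2 and siRNA 1 itself differed between myoblasts and myotubes, by the stage term of the fit over 18 libraries. The values below are the log2 difference in myoblasts minus that in myotubes, so a positive value means a more positive difference in myoblasts; 60 were positive and 57 negative. In 110 of the 117 the siRNA difference was larger in size in myoblasts, and in 58 it had the same sign in both stages. All 117 had been called in myoblasts, the contrast by which they were chosen. Since the control libraries do not enter the siRNA contrast, these values rest on 12 libraries, with the spread estimated over 18.

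Among the 24 genes furthest apart, the stage difference was 1.16 for Mylk4, 1.14 for Synpo2l, 1.03 for Rassf8, 0.951 for 9330159F19Rik, 0.816 for Smyd1, 0.554 for Itgb3 and 0.436 for Ccnd2 on the positive side. On the negative side it was -1.88 for Dusp9, -1.61 for Npr3, -1.48 for Gzme, -0.971 for Mad1l1, -0.643 for Nkain1, -0.615 for Fam76a, -0.594 for Mink1, -0.581 for Psmg3, -0.365 for Tbc1d10b, -0.364 for Ankrd13a and -0.332 for Cpt2. In the list RNA interference machinery, the stage difference was 0.446 for Tnrc6a and 0.311 for Dgcr8, and -0.368 for Drosha. In the list interferon response, the stage difference was 1.7 for Xaf1 and 0.338 for Stat2. In the list interleukin receptors and ligands, the stage difference was 0.457 for Lifr and 0.315 for Socs3, and -0.761 for Il11ra1. In the list TGF-beta and activin, the stage difference was 0.344 for Tgfbr1, and -0.435 for Ltbp1. In the list Wnt, the stage difference was 0.445 for Fzd7 and 0.276 for Fzd1, and -1.84 for Dkk2 and -0.889 for Fzd9. In the list Notch, the stage difference was 0.297 for Lfng and 0.272 for Notch2, and -0.367 for Jag2 and -0.316 for Maml3. In the list IGF and insulin, the stage difference was 0.435 for Igfbp6 and 0.224 for Rictor, and -0.286 for Akt1. In the list YAP, TAZ and SRF targets, the stage difference was 0.472 for Vcl, 0.331 for Arhgef17 and 0.237 for Mrtfb. In the list actin dynamics and focal adhesion, the stage difference was 0.337 for Itga5, 0.333 for Rhob and 0.265 for Limk1. In the list matrix proteases, the stage difference was 0.459 for Plau, 0.459 for Timp2 and 0.215 for Mmp14. In the list myogenic regulators, the stage difference was 0.217 for Kirrel, 0.19 for Mef2d and 0.158 for Nfatc3 on the positive side. On the negative side it was -1.67 for Msc, -0.259 for Met, -0.206 for Tcf3 and -0.193 for Nfix. In the list mitosis, the stage difference was -0.64 for Incenp, -0.506 for Cenpf and -0.164 for Prc1. In the list S phase, the stage difference was 0.506 for Rrm2, 0.375 for E2f1, 0.279 for Tk1 and 0.256 for Pola2, and -0.646 for Chaf1a.

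In the list G1 control, the stage difference was 0.507 for Ccnd3, 0.382 for Cdkn1a and 0.187 for E2f6. In the list p53 targets, the stage difference was 0.383 for Gadd45b, and -0.306 for Ei24, -0.306 for Xpc and -0.217 for Bax. In the list DNA repair, the stage difference was -0.247 for H2afx and -0.224 for Xrcc5. In the list apoptosis, the stage difference was 0.263 for Bak1 and 0.226 for Xiap. In the list integrated stress and unfolded protein response, the stage difference was 0.333 for Pdia6, 0.283 for Calr, 0.283 for Hsp90b1 and 0.278 for Pdia3 on the positive side. On the negative side it was -0.845 for Ddit3, -0.421 for Shmt2 and -0.36 for Atf5. In the list cytosolic heat shock, the stage difference was 0.583 for Hspa1a, 0.52 for Hspb1, 0.242 for Dnajb4 and 0.215 for Bag3 on the positive side. On the negative side it was -0.357 for Fkbp4, -0.302 for Ahsa1 and -0.17 for Tcp1. In the list oxidative stress response, the stage difference was 0.233 for Ftl1, and -0.475 for Prdx3. In the list hypoxia response, the stage difference was -0.487 for Slc2a1, -0.331 for Ndrg1 and -0.246 for Ero1l. In the list glycolysis, the stage difference was -0.451 for Slc16a3 and -0.259 for Pfkl. In the list proteasome, the stage difference was 0.242 for Psme2, and -0.364 for Psmd11, -0.336 for Psmd2, -0.209 for Psmc2 and -0.16 for Psmd7. In the list splicing factors, the stage difference was 0.39 for Celf2 and 0.348 for Mbnl1, and -0.38 for Hnrnpm and -0.364 for Snrnp70. In the list chromatin remodelling and modifiers, the stage difference was 0.837 for Tet1 and 0.439 for Hdac4, and -0.345 for Kat2a, -0.198 for Smarca4 and -0.179 for Kdm5c. In the list vesicle traffic and secretion, the stage difference was -0.535 for Golga2 and -0.284 for Snx2. Single genes of other lists had stage differences of -0.196 for Ash1l, -0.302 for Acaca, 0.219 for Lamc1, 0.41 for Tubb3, 1.05 for Ly6a and 1.74 for Sp7.

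The difference between stages was tested here, and no explanation for it was tested.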

How the results depend on the processing

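Of 258 named genes, 0 reversed their direction in any alternative run, 43 lost the call in at least 1 and 30 in at least 1 fit without a library. With the library prefix in the model, 6263 genes were called in myoblasts, 3064 of them higher, and 4021 for the difference between stages. Limma on TPM called 1653 genes higher and 1396 lower (54.2% of calls higher, against 45.8% with edgeR on counts), and gave the proteasome list a median log2 difference of -0.020. It moved the medians of 18 of the 50 lists by at least their SD between libraries, and changed the sign of 6. With the prefix in the model 7 medians moved and 4 changed sign. With same-prefix libraries summed 8 moved and 6 changed sign. No other alternative run moved more than 9. Leaving out 1 library gave 3092 to 3941 calls in myoblasts and 1762 to 3196 in myotubes, with the lowest without myotube siRNA 1 replicate 3, and 1814 and 1817 without siRNA 1 replicate 2 or siRNA 2 replicate 2. The same gave medians of 0.196 to 0.253 for the BMP and Id list. The cause of these movements was not tested. Deviations of same-numbered libraries of the siRNAs had correlations of 0.124, -0.151 and 0.134. Between the siRNAs, libraries of the same prefix had positive correlations and libraries of different prefix negative ones. The 2 libraries numbered 2 differ in prefix, so this check cannot tell whether the numbers pair libraries. A replicate block gave 5322 calls in myoblasts (34.1% of genes tested), 60% of the MAPK and immediate early list, and called Setd3 lower (adjusted p = 0.0461). Libraries of an arm left with 2 samples were tested with the spread pooled over all groups. Setd2 stayed uncalled in every alternative run, with log2 differences of 0.0386 to 0.26. Depth limits the genes under a few CPM, such as Xaf1, Ifit1 and Sp7.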
